A study of Homo sapiens with 18 samples.

Results

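The promoters of 10 genes that the transcription factor NFE2L2 is known to activate were followed across 4 histone modifications in MOLM-13 cells treated with PR-957. The genes are GCLC, GCLM, SLC7A11, SRXN1, TXNRD1, NQO1, HMOX1, PIR, ME1 and ABCC3. For each modification, every interval of the deposited count files that overlaps 2 kb on either side of a transcription start site (TSS) of the gene in GENCODE release 44 was taken. The interval with the highest mean count over the 4 libraries of the modification represents the gene. Other intervals are given beside it for some genes and modifications only. This gave 44 of 59230 H3K4me3 intervals, 31 of 74559 H3K27ac intervals, 25 of 108165 H3K4me1 intervals and 7 of 33437 H3K27me3 intervals. The lists hold up to 4 overlapping intervals for the same promoter, so the intervals of a gene are not independent measurements. All of them passed the count filter and were tested.

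MOLM-13 is an established line of human acute myeloid leukemia cells that carries a KMT2A rearrangement. The cells received 100 nM PR-957, an inhibitor of the immunoproteasome subunit PSMB8, or DMSO, for 72 h according to the sample labels. One legend of the study gives a shorter time. Histone modifications were mapped by Cut&Tag, in which an antibody brings Tn5 transposase to the modified nucleosomes and the tagged fragments are sequenced. Each modification has 2 libraries per treatment, numbered 1 and 2, and all 16 libraries come from this single cell line. Nothing in the labels says that the libraries come from separate cultures, so the p-values measure only the spread between these samples. The IgG controls were not analysed here, and no background level can be given from them.

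NFE2L2, also named NRF2, switches on genes of the antioxidant defence. It is kept low by KEAP1, which presents it to the CUL3-RBX1 ubiquitin ligase for degradation by the proteasome. When it accumulates, it pairs with a small MAF protein and binds antioxidant response elements in promoters and enhancers, sites that BACH1 and BACH2 can occupy as repressors. H3K4me3 and H3K27ac mark active promoters, H3K4me1 marks enhancers and the flanks of promoters, and H3K27me3 is the mark of Polycomb repression.

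Total counts on the listed intervals were 30070119 to 44591150 per H3K4me3 library, 9885836 to 14165777 for H3K27ac, 15204186 to 30584219 for H3K4me1 and 10032503 to 12047958 for H3K27me3. Both H3K4me3 libraries of DMSO were deeper than both of PR-957, as were both H3K4me1 libraries of DMSO. The part of depth in the results was not tested. Of 6 genes that mark myeloid leukemia cells, 5 had an H3K4me3 interval within the window (SPI1, CD33, CSF1R, MEIS1 and HOXA9), and MPO had none. Among markers of other blood and tissue types, CD3E, GATA1 and ALB had none, whereas EPCAM had one. All levels are CPM (counts per 1 M of the effective library size). EPCAM was at 1.03 CPM in DMSO. The fold changes are those of edgeR's quasi-likelihood fit, with p-values adjusted by Benjamini-Hochberg over all intervals of a modification and a threshold of 0.05. The 10 genes were chosen by their known regulation and also by measured values, since ME1 in H3K4me3 and ABCC3 in H3K4me1 had been seen among the smallest p-values of these data. Those 2 results are therefore given as a description, without a p-value, and the counts of members called are not independent evidence.

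The antioxidant response element was looked for as the letters TGACNNNGC on both strands. The RefSeq promoter table (GRCh38.p14, 250 bases before to 50 bases after the start) has entries for 7 of the 10 genes. ABCC3, HMOX1 and SLC7A11 are not among them. The letters occur in 13.3% of 35116 RefSeq promoters, or 16.1% of 27305 genes, and in the promoters of GCLM, ME1, PIR and TXNRD1. The narrower form TGACNNAGC, a subset of the first, occurs in 3.83% of all promoters (4.7% of genes) and in the same 4 genes. The exact letters TGACTCAGC contain the TGACTCA recognised by AP-1. They occur in 0.561% of all promoters (0.689% of genes) and in the promoters of ME1 and PIR. The 250 bases upstream of the start are shown for the 3 genes whose H3K4me3 passed the threshold, in lower case with letters that match TGACNNNGC in capitals. All 3 genes lie on the minus strand, and the bases are written 5′ to 3′ along the gene. ME1 is at chr6:83431052-83431301, PIR at chrX:15493334-15493583 and SRXN1 at chr20:653201-653450.
ME1: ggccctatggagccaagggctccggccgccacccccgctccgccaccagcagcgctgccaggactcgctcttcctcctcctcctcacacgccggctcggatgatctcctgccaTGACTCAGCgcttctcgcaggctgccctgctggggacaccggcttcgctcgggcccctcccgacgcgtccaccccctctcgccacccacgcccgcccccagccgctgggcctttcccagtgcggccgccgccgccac
PIR: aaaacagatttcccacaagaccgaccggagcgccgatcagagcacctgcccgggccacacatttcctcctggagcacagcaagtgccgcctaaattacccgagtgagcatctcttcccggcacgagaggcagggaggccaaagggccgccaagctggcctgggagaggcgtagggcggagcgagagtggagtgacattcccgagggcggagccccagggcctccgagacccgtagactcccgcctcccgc
SRXN1: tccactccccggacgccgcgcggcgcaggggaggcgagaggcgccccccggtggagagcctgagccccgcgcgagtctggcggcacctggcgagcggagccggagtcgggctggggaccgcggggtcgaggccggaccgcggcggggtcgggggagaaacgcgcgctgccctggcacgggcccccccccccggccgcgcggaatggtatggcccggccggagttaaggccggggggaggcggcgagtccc
The ME1 element begins 137 bases before the start and ends 129 bases before it. The GC content of these 250 bases is 74% for ME1, 65.2% for PIR and 80.4% for SRXN1.

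Elsewhere in the promoter intervals the letters stood at other distances. PIR carries the exact letters downstream of its start, from 26 to 34 bases, at chrX:15493289-15493317 (10 bases on either side included). NQO1 carries them from 455 to 447 bases upstream of its canonical start, at chr16:69726997-69727025, and GCLC carries them from 3156 to 3148 bases upstream, at chr6:53548239-53548267. GCLM carries the narrower form from 34 to 26 bases upstream, at chr1:93909446-93909474. TXNRD1 has a match of the narrower form at its downstream start, at chr12:104286920-104286948. Further matches of this form lie at the canonical TXNRD1 start, at chr12:104215761-104215789, and at chr12:104289749-104289777. GCLC has a further match of this form at chr6:53545953-53545981. The following windows, read from hg38 and oriented so that the capitals read TGAC first, show the site named first for each gene.
PIR: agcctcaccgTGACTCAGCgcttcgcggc
NQO1: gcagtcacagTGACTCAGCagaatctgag
GCLC: cgcctccccgTGACTCAGCgctttgtgcg
GCLM: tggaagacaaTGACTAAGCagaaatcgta
TXNRD1: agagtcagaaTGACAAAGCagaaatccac
Of the representing H3K4me3 intervals, 8 of 10 hold TGACNNNGC, against 69% of all H3K4me3 intervals of like width (within 10 percent). For TGACNNAGC it was 6 of 10 against 33.7%. A match describes letters only.

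In H3K4me3, the promoters of ME1, PIR and SRXN1 were higher in PR-957 than in DMSO and passed the threshold, and none of the 10 was lower. Over all intervals, 0.226% passed in either direction and 0.181% were higher. With 1 interval for each of 12795 protein-coding genes, 0.18% were higher. In H3K27ac, HMOX1 had no interval in the window, and 0 of the other 9 genes passed in edgeR, where 0.238% of all intervals did. Of these 9, GCLM, ME1, NQO1 and SRXN1 had an unadjusted p under 0.05, and DESeq2 also called 0. No share of all intervals under the unadjusted rule is given here, and the 0.238% is not a comparison for it. In H3K4me1, PIR, GCLM and SLC7A11 had no interval, and ABCC3, which was higher, was the 1 of 7 past the threshold. Of all H3K4me1 intervals 1.94% passed and 1.24% were higher, and of protein-coding genes 0.701% were higher. ABCC3 in H3K4me1 and ME1 in H3K4me3 were chosen with these values known. The shares are therefore no comparison for those 2 calls. Whether PIR and SRXN1 in H3K4me3 had also been seen before the list was made is not known. Their calls and adjusted p-values are therefore not independent evidence either. In H3K27me3, ABCC3 alone had an interval, which passed and was higher. Of all H3K27me3 intervals 5.92% passed and 0.824% were higher, and of protein-coding genes 1.83% were higher. The split of calls moved with the scaling, from 262 higher and 1620 lower H3K27me3 intervals to 1521 and 698 with library size only and to 794 and 965 with loess offsets. In H3K4me1 it moved from 1341 higher and 758 lower to 1902 and 465 with library size only.

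The log2 fold change at the promoters was above 0 for 10 of 10 genes in H3K4me3, 9 of 9 in H3K27ac and 6 of 7 in H3K4me1. Of all protein-coding genes, 46.4%, 50.2% and 37.9% were above 0. Some of the members' values were close to 0, with 0.0002 for PIR in H3K27ac and 0.006 for TXNRD1 in H3K4me3. SLC7A11 in H3K4me3 had 0.036, and its other promoter intervals were below 0, from -0.08 to -0.05. The medians were 0.18, 0.25 and 0.35, whereas the medians over all protein-coding genes were -0.01, 0.00 and -0.08. Both PR-957 libraries lay above both DMSO libraries in 6 of 10 genes for H3K4me3, 4 of 9 for H3K27ac and 4 of 7 for H3K4me1. Among all protein-coding genes this held for 16.9%, 19.1% and 15.3%, respectively. The H3K4me3 figures include ME1 and the H3K4me1 figures include ABCC3, whose values in those marks helped to choose the list. These counts and medians are therefore a description and not independent evidence. No test was made of the 10 genes as a set. Whether more cells carry a mark or each cell carries more of it cannot be told apart in these bulk libraries.

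**Figure D1:**
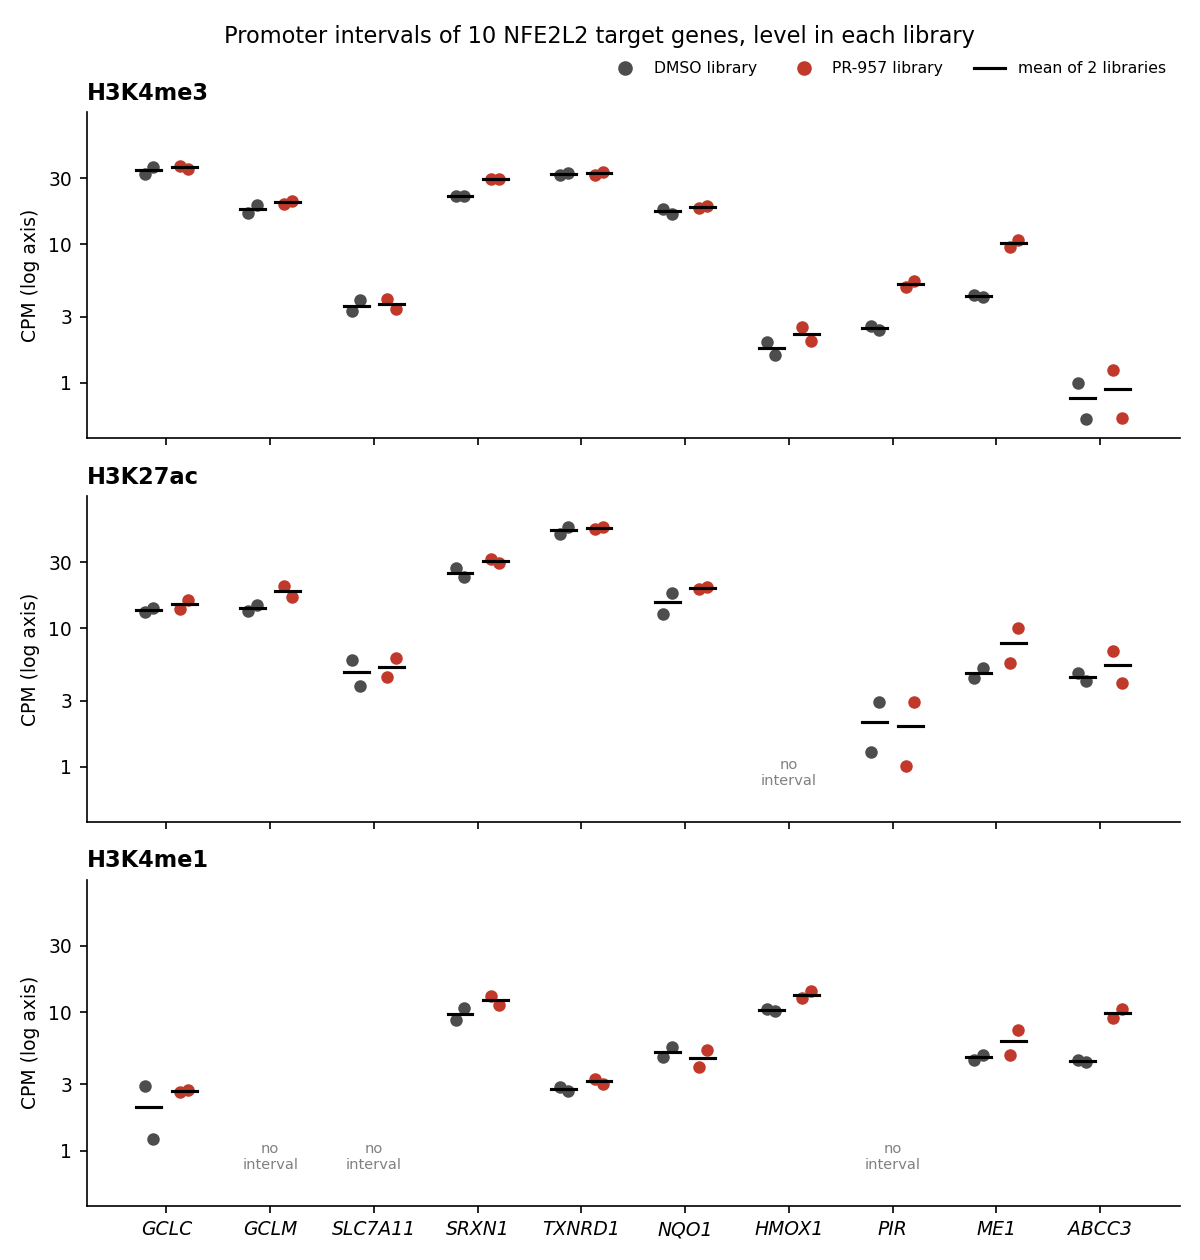
CPM (log axis) of the representing promoter interval of each gene in the H3K4me3, H3K27ac and H3K4me1 libraries. Each point is a library (grey DMSO, red PR-957), each bar the mean of 2. The red points of ME1 and PIR stand well above the grey in H3K4me3, those of ABCC3 do so in H3K4me1, and at TXNRD1 and GCLC the H3K4me3 points of both treatments lie at the same height.

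ME1 encodes the cytosolic malic enzyme, which makes NADPH. Its only annotated start (chromosome 6, 83431051, minus strand) lies in the H3K4me3 interval at chr6:83429367-83431892, over exon 1. H3K4me3 was 4.34 and 4.18 CPM in DMSO and 9.65 and 10.8 CPM in PR-957. The 2 PR-957 libraries stood far above the DMSO libraries, with no overlap. This was a log2 fold change of 1.26 (SE 0.15), or 2.40-fold, given as a description. The other 3 intervals of the promoter gave the same value to 2 decimals. ME1 had the 8th largest H3K4me3 log2 fold change of 12795 protein-coding genes, while its DMSO level exceeded that of 11.5% of them.

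H3K27ac at ME1 was 4.39 and 5.14 CPM in DMSO and 5.64 and 9.99 CPM in PR-957. The treated libraries lay above the control libraries but far apart from each other. The log2 fold change was 0.75 (SE 0.24, adjusted p = 0.215, edgeR). Without the second PR-957 library it was 0.25, so the size rests on that library. In H3K4me1 the libraries overlapped, with 4.51 and 4.93 CPM in DMSO, 4.88 and 7.39 CPM in PR-957 and a log2 fold change of 0.41 (SE 0.19, adjusted p = 0.25, edgeR). It was 0.052 without the second PR-957 library and 0.65 without the first. No H3K27me3 interval lay in the window. Whether the change differs between modifications was not tested.

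PIR encodes pirin, an iron-binding nuclear protein. H3K4me3 over its start (chromosome X, canonical start 15493333, minus strand, interval chrX:15491828-15494034) was 2.60 and 2.40 CPM in DMSO and 4.92 and 5.42 CPM in PR-957. The treated libraries stood well above the control libraries, without overlap. The log2 fold change was 1.05 (SE 0.22, adjusted p = 0.00156, edgeR), and all 4 intervals of the promoter passed. It lost the call without the second DMSO library (adjusted p = 0.183, edgeR) and without the second PR-957 library (adjusted p = 0.0715, edgeR), where the log2 fold change was 0.99 and 0.98. PIR was the 20th largest of the 12795 genes in fold change.

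In H3K27ac the PIR promoter had few counts, 24.5 on average, and no difference was detectable at this depth. It was 1.29 and 2.92 CPM in DMSO and 1.01 and 2.96 CPM in PR-957. The libraries of one treatment differed more from each other than the treatments did. The sign of the fold change turned with the scaling.

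**Figure D2:**
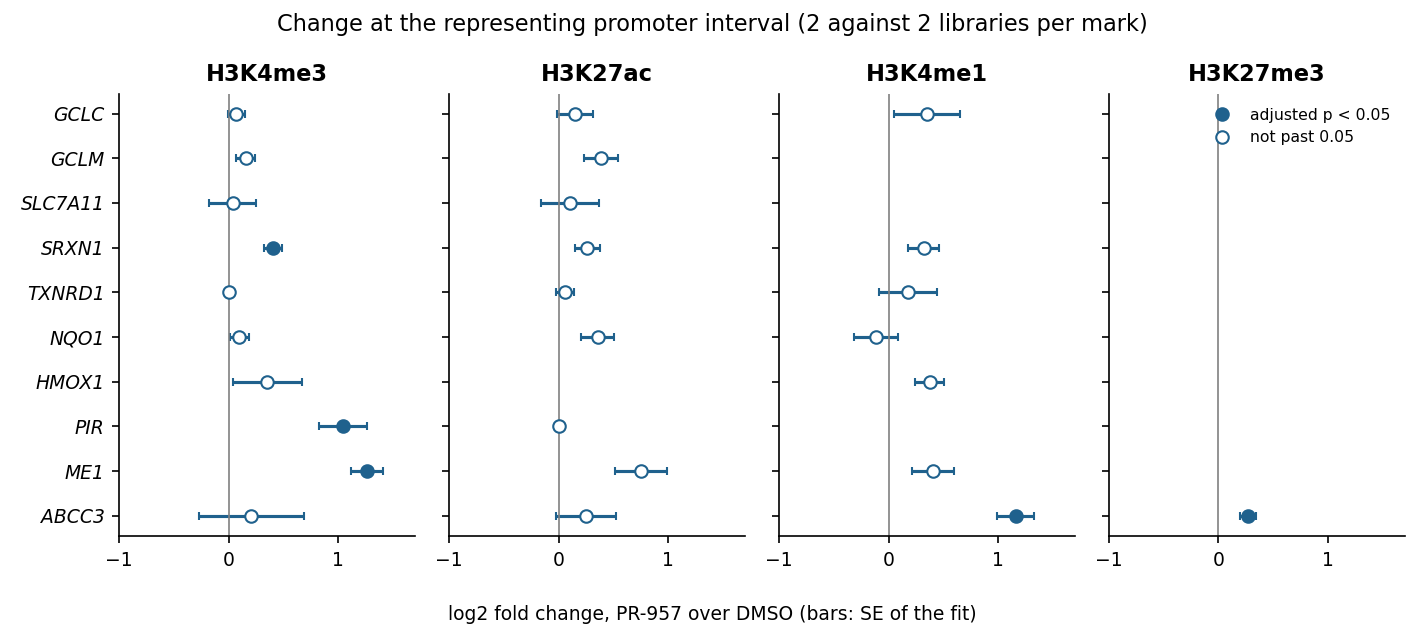
Log2 fold change of PR-957 over DMSO (x axis) at the representing promoter interval of each gene (y axis), 1 panel per modification, with the standard error of the fit as bars and filled points for an adjusted p under 0.05. Bars are left out for PIR in H3K27ac and TXNRD1 in H3K4me3, whose values are near 0. Most points stand to the right of 0, with ME1 and PIR in H3K4me3 and ABCC3 in H3K4me1 farthest out.

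SRXN1 encodes sulfiredoxin, which restores peroxiredoxins that hydrogen peroxide has overoxidised. Its start (chromosome 20, 653200, minus strand) lies in the H3K4me3 interval chr20:651156-654444. This interval gave 22.6 and 22.3 CPM in DMSO and 29.5 and 29.9 CPM in PR-957. The libraries of each treatment were nearly equal, and the treated ones were higher. The log2 fold change was 0.40 (SE 0.08, adjusted p = 0.00044, edgeR), which is 1.32-fold, and all 4 intervals passed. The call was lost without the second DMSO library (adjusted p = 0.116, edgeR) and in DESeq2 (adjusted p = 0.0567), with log2 fold changes of 0.40 and 0.41.

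Of the other 2 marks at SRXN1, H3K27ac was 27.1 and 23.4 CPM in DMSO and 31.6 and 29.5 CPM in PR-957, with a log2 fold change of 0.26 (SE 0.12, adjusted p = 0.512, edgeR). H3K4me1 was 8.74 and 10.6 CPM in DMSO and 13.0 and 11.2 CPM in PR-957, with a log2 fold change of 0.32 (SE 0.14, adjusted p = 0.211, edgeR). Neither passed, although in both the treated libraries lay above the control libraries.

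TXNRD1 encodes thioredoxin reductase, which keeps thioredoxin reduced with electrons from NADPH. The gene (chromosome 12, plus strand) has annotated starts that lie far apart. The interval with the most counts begins 70195 bases downstream of the canonical start at 104215779 in H3K4me3 (chr12:104285974-104290594, over exon 4), and 15 annotated transcripts start in it. H3K4me3 there was 31.8 and 33.0 CPM in DMSO and 31.7 and 33.4 CPM in PR-957. The 2 treatments overlapped, with a log2 fold change of 0.01 (adjusted p = 0.995, edgeR). H3K27ac and H3K4me1 at this start had log2 fold changes of 0.06 (SE 0.08) and 0.18 (SE 0.26), and neither passed.

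At the canonical TXNRD1 start, H3K4me3 was weaker. The 4 intervals there held 84.75 to 90.75 counts on average and had log2 fold changes of 0.27 to 0.33, with overlapping libraries and no call.

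GCLC and GCLM encode the catalytic and the modifier subunit of glutamate-cysteine ligase, the first enzyme of glutathione synthesis. At GCLC (chromosome 6, canonical start 53545101, minus strand, interval chr6:53542732-53548531), H3K4me3 was 32.2 and 36.4 CPM in DMSO and 36.8 and 35.2 CPM in PR-957. The treatments overlapped (log2 fold change 0.07, SE 0.08, adjusted p = 0.898, edgeR). The second cluster of GCLC intervals, 2 to 4 kb upstream of the canonical start and holding the exact element letters, had H3K4me3 log2 fold changes of 0.11 to 0.12 and no call. An H3K27ac interval at this upstream site (chr6:53546760-53548587) had a log2 fold change of -0.16 (SE 0.38), with overlapping libraries and no call.

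At GCLM (chromosome 1, minus strand, interval chr1:93907423-93911053), H3K4me3 was 17.0 and 19.2 CPM in DMSO and 19.7 and 20.6 CPM in PR-957. The treated libraries lay just above the control libraries (log2 fold change 0.16, SE 0.09, adjusted p = 0.72, edgeR). H3K27ac at GCLM was 13.4 and 14.8 CPM in DMSO and 20.2 and 16.7 CPM in PR-957. Again the libraries did not overlap, but the log2 fold change of 0.38 (SE 0.16) did not pass (adjusted p = 0.443, edgeR). At GCLC, H3K27ac overlapped (log2 fold change 0.15, SE 0.17), and so did H3K4me1 (0.35, SE 0.30), where the second DMSO library was at 1.21 CPM and the other 3 at 2.63 to 2.91 CPM.

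SLC7A11 is the cystine transporter that supplies cysteine for glutathione. Its promoter (chromosome 4, canonical start 138242349, minus strand, interval chr4:138240253-138242912) had H3K4me3 of 3.29 and 3.94 CPM in DMSO and 4.00 and 3.40 CPM in PR-957. H3K27ac was 5.90 and 3.83 CPM in DMSO and 4.43 and 6.05 CPM in PR-957. In both marks the treatments overlapped, with log2 fold changes of 0.04 (SE 0.22) and 0.10 (SE 0.26), and the sign of each turned when single libraries were left out.

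NQO1 encodes a quinone reductase and HMOX1 encodes heme oxygenase, which breaks down heme. H3K4me3 at NQO1 (chromosome 16, minus strand, interval chr16:69724130-69728932) was 17.9 and 16.7 CPM in DMSO and 18.2 and 18.9 CPM in PR-957. The groups were close but did not overlap (log2 fold change 0.10, SE 0.09, adjusted p = 0.878, edgeR). H3K27ac at NQO1 was 12.7 and 18.0 CPM in DMSO and 19.1 and 19.7 CPM in PR-957, with a log2 fold change of 0.36 (SE 0.15, adjusted p = 0.482, edgeR). Without the first DMSO library it was 0.11 and without the second 0.61. Here the 2 DMSO libraries differed from each other by more than the treated libraries differed from the higher of them. NQO1 was the only gene with a negative log2 fold change in H3K4me1, at -0.12 (SE 0.20), with overlapping libraries.

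HMOX1 (chromosome 22, plus strand) had a weak H3K4me3 interval over its start (chr22:35380201-35381737). It gave 1.97 and 1.59 CPM in DMSO and 2.53 and 2.01 CPM in PR-957, without overlap (log2 fold change 0.35, SE 0.31, adjusted p = 0.877, edgeR). The start itself lay outside every H3K4me1 interval, and the interval within 2 kb ended 1844 bases upstream of the canonical start (chr22:35373947-35379252). H3K4me1 there was 10.5 and 10.2 CPM in DMSO and 12.6 and 14.1 CPM in PR-957. All 4 intervals of this upstream locus had higher treated libraries, and the log2 fold change was 0.37 (SE 0.13, adjusted p = 0.112, edgeR).

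ABCC3 encodes an export pump for glutathione and glucuronide conjugates. Its canonical start (chromosome 17, 50634881, plus strand) lay in a broad H3K27me3 interval, chr17:50625505-50640050, 14545 bases wide. H3K27me3 was 75.4 and 74.8 CPM in DMSO and 89.3 and 92.0 CPM in PR-957. The treated libraries were higher without overlap, and the log2 fold change was 0.27 (SE 0.07, adjusted p = 0.00792, edgeR), or 1.21-fold. The call was lost without the first DMSO library (adjusted p = 0.144, edgeR), without the second DMSO library (adjusted p = 0.205), without the second PR-957 library (adjusted p = 0.113) and after removal of the GC trend (adjusted p = 0.0862). The log2 fold changes there were 0.27, 0.25, 0.24 and 0.20, respectively. With scaling by library size alone the log2 fold change was 0.43, while the median of all H3K27me3 intervals moved from 0.02 to 0.18.

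H3K4me3 at the ABCC3 start was the weakest of the 10 genes, with 1.01 and 0.55 CPM in DMSO and 1.25 and 0.56 CPM in PR-957. The libraries labelled 1 were higher than those labelled 2 in both treatments. The log2 fold change of 0.21 (SE 0.48) was not detectable at a mean count of 30.75, and the start held neither H3K27ac nor H3K4me1 intervals.

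The H3K4me1 interval of ABCC3 lay within the gene. It starts 24785 bases downstream of the canonical start (chr17:50659666-50662716), covers exon 8 of the canonical transcript, and contains the start of 1 annotated transcript without a defined coding sequence. It was included because the rule takes every annotated start. H3K4me1 was 4.47 and 4.35 CPM in DMSO and 9.11 and 10.5 CPM in PR-957. Both treated libraries stood far above both control libraries. Their log2 fold change was 1.16 (SE 0.17), or 2.24-fold, given as a description, and the 4 intervals of the locus ranged from 1.08 to 1.19. With the starts limited to that of the gene record, ABCC3 had no H3K4me1 interval. H3K27ac in the same place was 4.77 and 4.13 CPM in DMSO and 6.84 and 4.01 CPM in PR-957 (log2 fold change 0.25, SE 0.27, adjusted p = 0.901, edgeR). The treatments overlapped in H3K27ac.

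**Figure D3:**
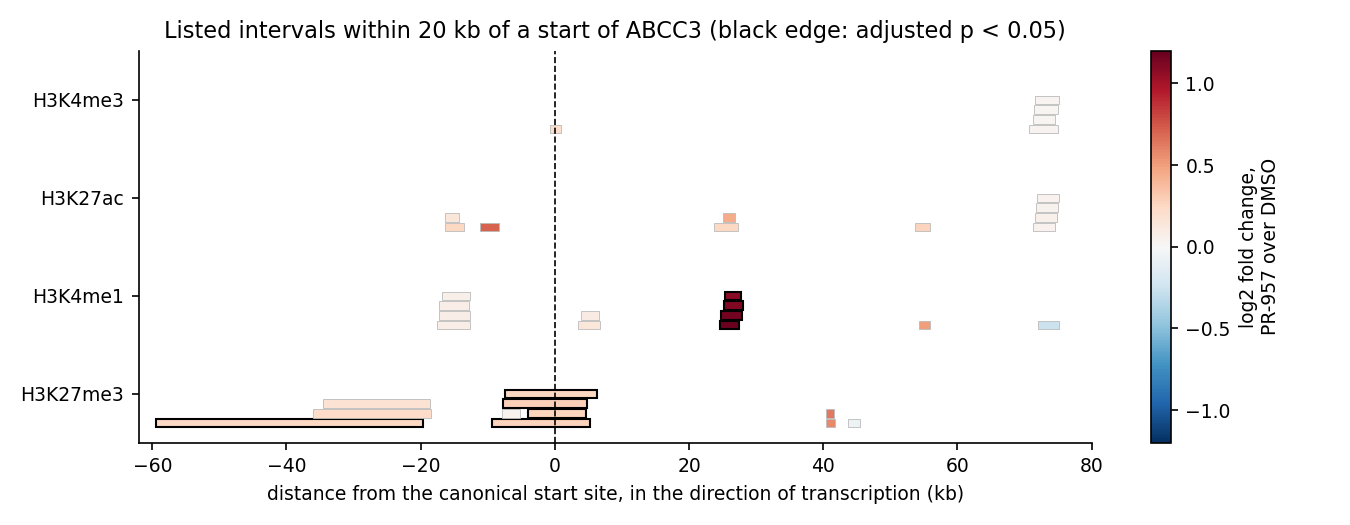
Listed intervals of the 4 modifications within 20 kb of an annotated start of ABCC3, by distance from the canonical start in kb (x axis, transcription to the right). Each bar is an interval, its colour is the log2 fold change of PR-957 over DMSO, and a black edge marks an adjusted p under 0.05. The dark H3K4me1 bars stand about 25 kb inside the gene, while the pale H3K27me3 bars with black edges cover the canonical start.

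The intervals nearest the limit of the window were an ABCC3 interval of H3K4me1 1737 bases from a start, with 1.25 CPM in DMSO and 1.77 CPM in PR-957, and a TXNRD1 interval of H3K4me1 2521 bases from a start, with 2.87 and 4.08 CPM. Between 2 and 20 kb from the starts, the H3K4me1 list held 47 intervals in 17 separate loci of 7 genes. With the interval of the highest count for each locus, the log2 fold change was above 0 in 14 of 17 loci, with a median of 0.31. Of all H3K4me1 intervals 49.9% were above 0. Both treated libraries lay above both control libraries in 7 of the loci, an order that 23.5% of all H3K4me1 intervals showed. A locus in the first intron of GCLC, 7445 bases from the nearest start, passed the threshold in all 4 of its overlapping intervals. These were the only calls among the 47 intervals, and 1.24% of all H3K4me1 intervals were called higher. At the interval with the smallest p (chr6:53531373-53534167), H3K4me1 was 2.68 and 3.68 CPM in DMSO and 6.29 and 5.39 CPM in PR-957. The treated libraries were clearly above, with a log2 fold change of 0.88 (SE 0.21, adjusted p = 0.00858, edgeR). The call was lost without the first DMSO library (adjusted p = 0.275), without the first PR-957 library (adjusted p = 0.158), in DESeq2 (adjusted p = 0.403) and with the GC trend removed (adjusted p = 0.0531).

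Upstream of ME1, H3K4me1 loci 2829 and 11329 bases from the start had log2 fold changes of 0.57 (SE 0.21) and 0.40 (SE 0.15), with higher treated libraries in all 8 of their intervals. Neither passed (adjusted p = 0.133 and 0.119, edgeR). A locus 5053 bases upstream of SRXN1 had a log2 fold change of 0.38 (SE 0.12, adjusted p = 0.0751, edgeR), and one 2681 bases downstream of the canonical TXNRD1 start had 0.61 (SE 0.24, adjusted p = 0.156, edgeR). The SLC7A11 locus 18958 bases upstream had 0.45 (SE 0.34). At HMOX1, the nearest outer locus, 8729 bases from a start, had -0.11 (SE 0.17), and at ABCC3 the nearest, 3435 bases from a start, had 0.14 (SE 0.24). In the other marks, the 1 call was the H3K27me3 interval from 59427 to 19666 bases upstream of ABCC3. It gave 102.08 and 114.29 CPM in DMSO and 127.57 and 129.32 CPM in PR-957 (log2 fold change 0.25, SE 0.07, adjusted p = 0.00709, edgeR). The treated libraries did not overlap the control libraries there, and the call was lost without the first DMSO library (log2 fold change 0.16, adjusted p = 0.52), without the second PR-957 library (0.23, adjusted p = 0.0681) and after removal of the GC trend (0.16, adjusted p = 0.142).

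**Figure D4:**
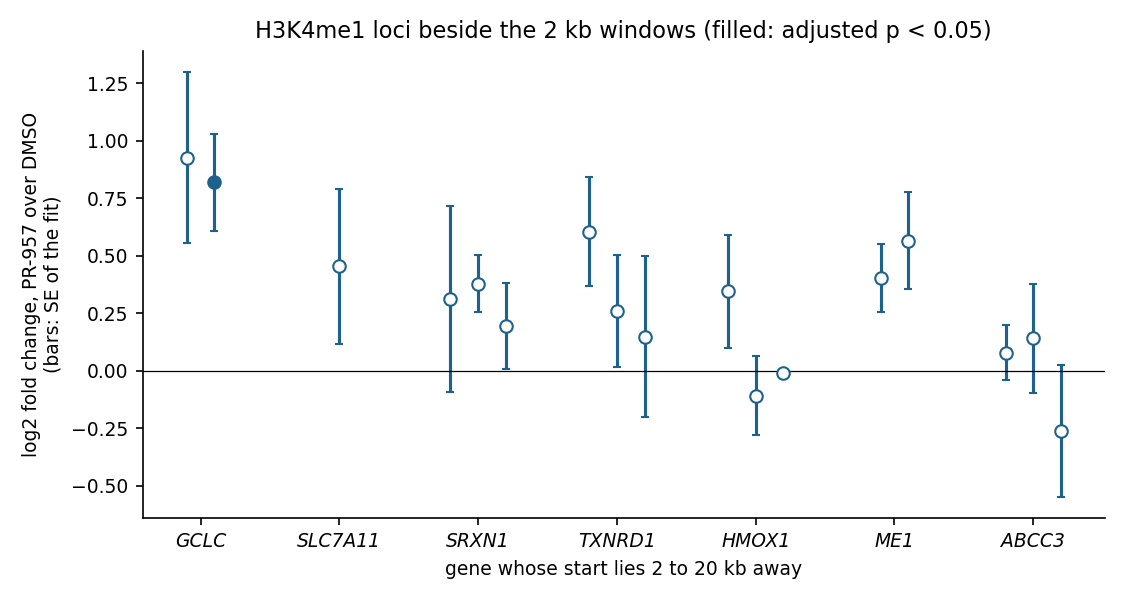
Log2 fold change of H3K4me1 (y axis, PR-957 over DMSO, bars the standard error of the fit) at the loci 2 to 20 kb from the starts of each gene (x axis), 1 point per locus, filled where an interval of the locus had an adjusted p under 0.05. Of the 17 points 14 lie above 0, and the filled point is the first-intron locus of GCLC.

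In DMSO the genes spanned a wide range of levels. Per kb of interval in DMSO, H3K4me3 was highest at TXNRD1, with 7.02 ± 0.18 CPM per kb (SD, n = 2), followed by SRXN1 with 6.82 ± 0.06, GCLC with 5.91 ± 0.51, GCLM with 4.98 ± 0.44 and NQO1 with 3.60 ± 0.18. ME1, the next, had 1.69 ± 0.04 CPM per kb, and SLC7A11, HMOX1 and PIR had 1.36 ± 0.17, 1.16 ± 0.18 and 1.13 ± 0.06. ABCC3 was the lowest with 0.488 ± 0.20 CPM per kb. The DMSO libraries of SLC7A11 overlapped those of HMOX1, and those of HMOX1 overlapped those of PIR. In PR-957, ME1 reached 4.05 ± 0.32 CPM per kb, and its libraries overlapped those of NQO1 at 3.86 ± 0.09.

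H3K27ac followed with TXNRD1 at 11.7 ± 0.92 CPM per kb and SRXN1 at 7.92 ± 0.82, and PIR and ABCC3 were lowest with 1.67 ± 0.92 and 1.27 ± 0.13. From NQO1 down, neighbours in the H3K27ac order overlapped. In H3K4me1 the order was different, with the upstream locus of HMOX1 first at 1.95 ± 0.04 CPM per kb, the internal ABCC3 locus next at 1.45 ± 0.03 and GCLC last at 0.449 ± 0.26.

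**Figure D5:**
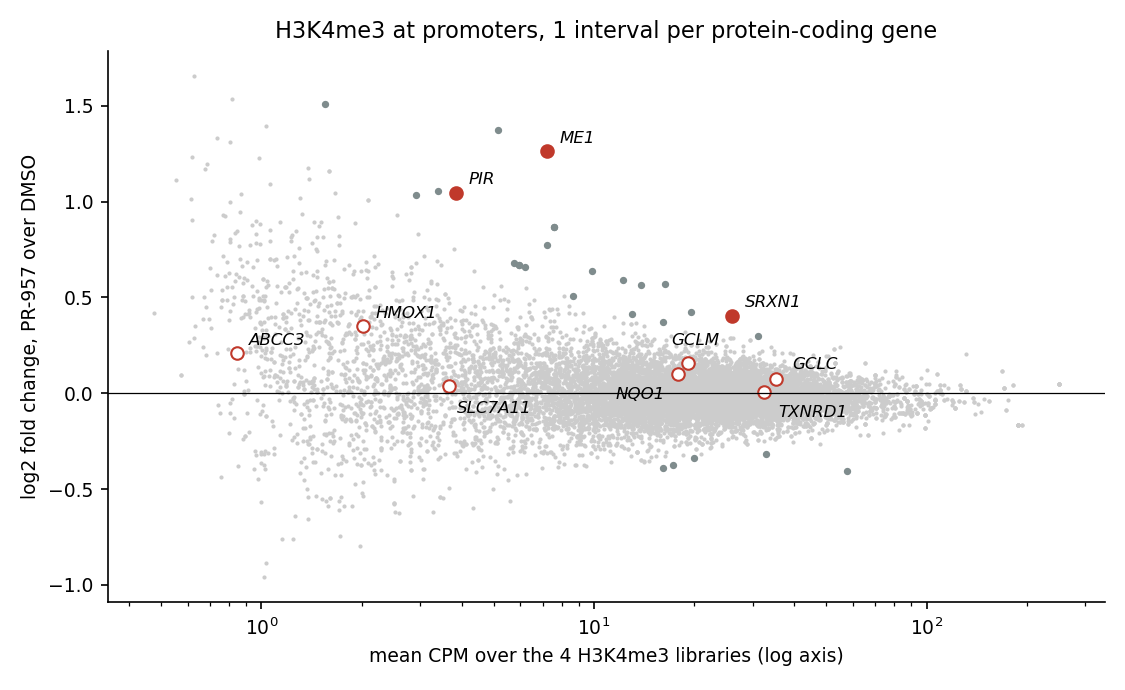
Log2 fold change of H3K4me3 (y axis, PR-957 over DMSO) against the mean CPM of the 4 libraries (log x axis) for 12795 protein-coding genes, 1 interval each. Dark grey points passed the threshold, red points are the 10 genes, filled if past it. ME1 and PIR stand at the upper edge of the cloud at low CPM, SRXN1 above it at higher CPM, and the other 7 within it.

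Other genes of the pathway were taken from a list of 30 further NFE2L2 targets. H3K4me3 intervals were found for 20 of them, and 0 passed in edgeR or DESeq2, with 4 at an unadjusted p under 0.05. For these targets, too, no share of all intervals under the unadjusted rule is given in any mark. Their median log2 fold change was 0.04, and 15 of 20 were above 0. For all protein-coding genes the median was -0.01, and 46.4% were above 0. Both PR-957 libraries lay above both DMSO libraries in 7 of the 20 and below them in 3. Among all protein-coding genes this held for 16.9% and 21%. The 2 with the smallest p pointed in opposite directions. FTL, the ferritin light chain, had 53.6 and 53.1 CPM in DMSO and 43.0 and 50.6 CPM in PR-957 (log2 fold change -0.19, SE 0.07, adjusted p = 0.39, edgeR), and the log2 fold change was -0.078 without the first PR-957 library and -0.31 without the second. OSGIN1, an oxidative stress-induced growth inhibitor, had 4.99 and 6.20 CPM in DMSO and 7.68 and 7.03 CPM in PR-957 (log2 fold change 0.40, SE 0.15, adjusted p = 0.399, edgeR), with 0.25 to 0.56 when single libraries were left out.

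In H3K27ac 0 of 20, in H3K4me1 0 of 18 and in H3K27me3 0 of 2 of these targets passed in edgeR, with 0, 1 and 0 at an unadjusted p under 0.05, and DESeq2 called 0 in each. The smallest p were those of TALDO1, a pentose phosphate enzyme (log2 fold change 0.25, SE 0.13), and GSR, glutathione reductase (0.18, SE 0.10), in H3K27ac, of FTL (-0.31, SE 0.12) in H3K4me1, and of BLVRB (0.39, SE 0.26) and AKR1B10 (0.37, SE 0.48) in H3K27me3. In H3K4me1, 4 of 18 were above 0, with a median of -0.05. Of all protein-coding genes, 37.9% were above 0, with a median of -0.08. Both PR-957 libraries lay above both DMSO libraries in 0 of the 18 targets and below them in 6. For all protein-coding genes these shares were 15.3% and 32.5%.

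Of the 10 regulators of the pathway, MAFG, a small MAF partner of NFE2L2, passed in H3K4me1 and was lower. Its interval (chr17:81917582-81934782) is 17200 bases wide and covers the whole gene, so the change cannot be placed at the promoter. It had 46.0 and 46.2 CPM in DMSO and 28.0 and 34.4 CPM in PR-957. Both treated libraries lay below the control libraries, with a log2 fold change of -0.55 (SE 0.12, adjusted p = 0.00134, edgeR). Of all H3K4me1 intervals 0.701% were lower, and of protein-coding genes 1.45%. The call was lost without the first PR-957 library (adjusted p = 0.295), in DESeq2 (adjusted p = 0.055) and with the GC trend removed (adjusted p = 0.0614). H3K4me3 at MAFG was 108 CPM in both DMSO libraries and 107 and 117 CPM in PR-957.

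No other regulator passed in any mark in edgeR. NFE2L2 itself had H3K4me3 of 44.6 and 49.3 CPM in DMSO and 49.6 and 51.1 CPM in PR-957 (log2 fold change 0.10, SE 0.07, adjusted p = 0.827, edgeR). KEAP1 had an H3K27ac log2 fold change of 0.18 (SE 0.08, adjusted p = 0.5, edgeR) and MAFG one of 0.19 (SE 0.08, adjusted p = 0.436). BACH2 and BACH1 had the smallest p in H3K4me3, with 0.19 (SE 0.12) and 0.12 (SE 0.08). BACH2, the one regulator with an H3K27me3 interval, had -0.23 (SE 0.09, adjusted p = 0.117, edgeR).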

How the data were processed

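Cut&Tag counts of H3K4me3, H3K27ac, H3K4me1 and H3K27me3 in MOLM-13 cells were analysed for 100 nM PR-957 against DMSO, with 2 libraries each. The deposited values are whole counts of reads or fragments, not normalized, that the authors summed over 1 interval list for each modification. The study aligned reads to hg38 with Bowtie2, and the submitters' processing notes name Trimmomatic 0.39, Bowtie2 2.2.5, SAMtools 1.7, Picard 2.27.1, SEACR 1.3 and deepTools 3.5.1. The counter, the treatment of duplicates and how the list was joined are not given in the sources used here. Coordinates are printed as listed.

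Intervals kept by filterByExpr (minimum count 10) were scaled by TMM and compared with the quasi-likelihood test of edgeR 4.0.16 in R 4.3.3, without the replicate number as a block. The SE is the absolute log2 fold change divided by the square root of F, and is not given under 0.01. Intervals were annotated in Python 3.11.15. The fits were also run on simulated data, and the outcome is not reported here. The members and lists were chosen with earlier results of these data known. All 10 members are named in every mark, then, of the other lists, genes past 0.05 or otherwise the 2 with the smallest p, and flanking loci past 0.05 with the nearest outer locus of the members described. Some genes of these lists are not reported here. FTL and MAFG entered by this rule, NFE2L2 itself as the factor after which the list is named.

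Alternatives were DESeq2 1.42.0, scaling by median-of-ratios factors, by cyclic loess offsets or by library size only, removal of the GC trend (loess span 0.3), a filter on a mean count of 50 or none, the replicate block, leaving out each library, windows of 1 and 5 kb, the start of the gene record only, the narrowest interval that holds a start, and TGACNNAGC for the element. The exact letters TGACTCAGC and 1 interval per protein-coding gene as a background were added after seeing the data. An exact permutation test of 2 against 2 libraries cannot give a p below 0.333.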

Additional observations from a re-analysis of the deposited data

How the results depend on the processing

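The log2 fold changes that chose members ranged over the alternatives from 1.18 to 1.34 for ME1 in H3K4me3 and from 1.05 to 1.26 for ABCC3 in H3K4me1, given as a description. PIR and SRXN1 in H3K4me3 kept their sign and passed in 14 of 16 alternatives each. With single libraries left out, the number of members past the threshold was 1 to 3 in H3K4me3, 0 to 1 in H3K27me3, 1 in H3K4me1 and 0 in H3K27ac. For H3K27me3 it was 0 with the GC trend removed and 0 with the narrowest interval that holds a start, since another ABCC3 interval is then taken. For H3K4me1 it was 0 with the start of the gene record only. MAFG, the 1 regulator past the threshold, was lost in DESeq2 and with the GC trend removed (0 each), and without single libraries the count was 0 to 1. Flanking intervals past the threshold in H3K4me1 numbered 8 with loess offsets, 8 with library size only, 8 with a mean count of at least 50, 0 in DESeq2 and 0 to 4 without single libraries. In H3K27me3 they numbered 2 with loess offsets, 7 with library size only, 3 with a mean count of at least 50, 0 with the GC trend removed and 0 to 1 without single libraries. With TGACNNAGC, which as a subset can only lower the share, the representing intervals that hold the element went from 77.8% to 66.7% in H3K27ac, from 100% to 85.7% in H3K4me1 and from 80% to 60% in H3K4me3. Among all intervals of like width it went from 69% to 35.1%, from 82.2% to 55.6% and from 69% to 33.7%. Apart from the effect of fewer intervals or libraries, the cause was not tested.

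Signs turned for 10 values that did not pass and for ABCC3 in H3K27me3, which was -0.058 with the narrowest interval. PIR in H3K27ac was -0.042 in DESeq2, -0.0050 with the GC trend removed, -0.27 with loess offsets, -0.13 with the replicate block, and -1.01 to 0.66 without single libraries. SLC7A11 in H3K4me3 was -0.040 with the GC trend removed, -0.020 with loess offsets, -0.052 with the narrowest interval, and -0.089 to 0.17 without single libraries. The other 8 turned only without single libraries. These ranges were -0.16 to 0.61 for ABCC3, -0.16 to 0.47 for SLC7A11 and -0.023 to 0.13 for TXNRD1 in H3K27ac, -0.48 to 0.71 for ABCC3, -0.014 to 0.16 for GCLC and -0.031 to 0.042 for TXNRD1 in H3K4me3, and -0.11 to 1.15 for GCLC and -0.34 to 0.047 for NQO1 in H3K4me1. Values that kept their sign but moved by over 1.5 times included GCLM (0.25 to 0.52) and GCLC (0.027 to 0.25) in H3K27ac and GCLM (0.067 to 0.25), NQO1 (0.050 to 0.15) and HMOX1 (0.18 to 0.52) in H3K4me3.

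Between libraries with the same replicate number, the correlation of deviations was 0.17 in H3K4me3 and between -0.009 and 0.007 in the other marks. With 2 libraries per treatment, this cannot show whether the libraries were paired. With the replicate number as a block, the calls over all intervals moved from 134 to 161 in H3K4me3 and from 1882 to 1324 in H3K27me3. Members past the threshold with this block were 3 in H3K4me3, 1 in H3K4me1, 1 in H3K27me3 and 0 in H3K27ac. No count of members, regulators or flanking intervals changed with it. At mean counts of 24.5 for PIR in H3K27ac and 30.75 for ABCC3 in H3K4me3, the depth did not fix the sign.

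The calls over all intervals, which serve as background, also moved. DESeq2 called 85 intervals in H3K27ac, 26 in H3K4me1 and 34 in H3K4me3, where edgeR called 177, 2099 and 134, and with the GC trend removed H3K4me1 had 953. Without single libraries H3K27ac had as few as 20, H3K4me1 322, H3K4me3 28 and H3K27me3 1168, of 1882.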
